A study of Mus musculus with 6 samples.

Results

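The genes of neuropeptide signalling, serotonin synthesis and neuroendocrine secretion followed here are the tachykinin precursor Tac1 and its receptors Tacr1 and Tacr2, the serotonin-synthesising enzymes Tph1 and Ddc, the granins Chga, Chgb and Scg2, the vesicle protein Syp and the ubiquitin hydrolase Uchl1. They make up 10 of the 19938 genes that the array followed through a probe set carrying 1 gene symbol. The 10 names were chosen by hand with the genotype comparison of these arrays already known, so their differences between genotypes are given as a description, and no test of them is offered as support. The probe set of each gene was selected on the highest mean intensity over all 6 arrays, a choice with no effect here, since every member has 1 probe set.

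RNA came from the prostate of 6 mice aged 4 weeks. In 3 of them the AR3 transgene was present, and their 3 littermates were wild-type. Each mouse gave 1 biotin-labelled sample on a whole-transcript Affymetrix array. AR3 is an androgen receptor splice variant that lacks the ligand-binding domain. The labels do not name the promoter that drives the transgene, the strain or the lobes dissected. Each array measured dissected prostate tissue in bulk, so fewer cells of a type and less RNA per cell cannot be told apart.

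In the prostate, scattered neuroendocrine cells lie among the luminal and basal epithelium and store serotonin, granins and peptide hormones in dense-core vesicles, while sensory and autonomic nerve fibres in the stroma release further peptides. Tac1 encodes the precursor from which substance P and neurokinin A are cut. Those peptides act on the receptors NK1 (Tacr1) and NK2 (Tacr2). Serotonin is made from tryptophan by tryptophan hydroxylase, Tph1 outside the brain, and then by the aromatic amino acid decarboxylase Ddc.

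Across the series, median intensity per array was 94.5 to 110.8, and the number of arrays limits the precision of every value. Genes of the prostate epithelium were bright in both genotypes, among them Pbsn (probasin; wild-type 9343 ± 366, transgenic 8078 ± 216) and Hoxb13 (1529 ± 47.7 and 1414 ± 24.7, SD, n = 3 each). The 1035 probe sets of olfactory receptors, genes of the nose, served as a scale of background, and their 95th percentile was 66.9 to 91.9 over the 6 arrays, with the lowest value on wild-type replicate 1. On the second principal component that array was at 30.8, wild-type replicate 3 at -22.3 and the other 4 between -5.42 and 3.19. The summed level of 11 seminal vesicle genes was 4932 on it and 790 and 958 in the other wild-type mice, against 3057 to 10583 in the transgenic mice.

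The promoter windows that RefSeq gives for Tac1, Tph1 and Uchl1 (GRCm38.p6, 250 bases before to 50 bases after the start) were searched for TGACG, the core of the cAMP response element. It was found in Tac1 and Tph1 and not in Uchl1, and in 23% of all genes. It was also found in 4 of the 7 members that were not called. With so few genes, chosen by hand, whether the motif goes with the calls was not tested. The windows are shown because these genes carry the genotype differences described below. Capitals mark TGACG or its complement CGTCA. The Tac1 window is chr6:7554811-7555110 on the plus strand. Tph1 has start sites in 2 windows, chr7:46672488-46672787 and chr7:46667328-46667627, both on the minus strand, and the array does not tell which start was used. The Uchl1 window is chr5:66675871-66676170 on the plus strand.
Tac1: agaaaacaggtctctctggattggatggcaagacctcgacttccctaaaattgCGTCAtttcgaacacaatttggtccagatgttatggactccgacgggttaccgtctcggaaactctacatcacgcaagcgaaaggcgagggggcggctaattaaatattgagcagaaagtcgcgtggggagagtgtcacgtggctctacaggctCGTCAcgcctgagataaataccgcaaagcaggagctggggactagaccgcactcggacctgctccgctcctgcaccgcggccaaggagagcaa
Tph1, first window: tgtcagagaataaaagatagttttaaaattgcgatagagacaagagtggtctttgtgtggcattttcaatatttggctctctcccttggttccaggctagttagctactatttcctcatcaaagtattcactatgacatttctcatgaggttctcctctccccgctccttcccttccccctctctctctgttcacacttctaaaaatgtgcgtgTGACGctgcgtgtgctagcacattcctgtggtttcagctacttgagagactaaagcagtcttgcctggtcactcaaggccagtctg
Tph1, second window: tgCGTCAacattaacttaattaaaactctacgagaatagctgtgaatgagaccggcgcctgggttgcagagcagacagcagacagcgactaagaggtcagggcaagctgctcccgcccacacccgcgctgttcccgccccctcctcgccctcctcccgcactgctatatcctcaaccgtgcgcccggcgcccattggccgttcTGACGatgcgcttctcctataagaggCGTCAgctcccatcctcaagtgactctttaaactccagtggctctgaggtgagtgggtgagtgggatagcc
Uchl1: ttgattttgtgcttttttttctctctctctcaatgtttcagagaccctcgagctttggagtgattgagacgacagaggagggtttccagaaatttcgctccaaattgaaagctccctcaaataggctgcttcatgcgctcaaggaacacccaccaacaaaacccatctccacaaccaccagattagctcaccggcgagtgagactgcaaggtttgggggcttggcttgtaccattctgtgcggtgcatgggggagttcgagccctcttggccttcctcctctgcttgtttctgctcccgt

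Windows were found for all 10 genes, 12 windows in all, and 7 of the 12 held TGACG on either strand, against 20.8% of all 32851 promoter windows of the same length. By gene this was 6 of 10, namely Tac1, Tacr1, Tph1, Chga, Chgb and Scg2, against 23% of 27025 genes. The matches in Tac1 begin 197 and 43 bases before the start, and those in the second Tph1 window 248, 47 and 21 bases before it. The full palindrome TGACGTCA was found in Chgb and Scg2, 2 of the 10 genes, and in 2.03% of all genes. It is printed with 11 bases on either side, for chr2:132781559-132781588 on the plus strand and chr1:79440076-79440105 on the minus strand, with the palindrome in capitals. Each palindrome also counts as TGACG on both strands.
Chgb: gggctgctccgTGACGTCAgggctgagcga
Scg2: ggctgagccggTGACGTCAgcgtggaatgc

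The half-site of the androgen response element, AGAACA on either strand, was found in Syp alone among the 10 (21.3% of all genes), and the palindrome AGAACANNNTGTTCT in none (0.0111% of all genes). The E-box CACGTG was found in Tac1 alone, 61 bases before its start (8.09% of all genes). These motifs were chosen with the expression values known. A match describes letters in a window, and binding was not measured.

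Of the 10 genes, Tac1 and Tph1 were lower and Uchl1 was higher in AR3 transgenic prostates, while 7 of the 10 missed the threshold. Of the vesicle genes often used as neuroendocrine markers, Chgb was above the olfactory receptor scale on all 6 arrays. Chga, Scg2 and Syp, together with Ddc, were near or below that scale in both genotypes. Differences are given as transgenic minus wild-type on the scale of log2(intensity + 16), with a standard error (SE) from limma, and a gene was called at an adjusted p under 0.05 over all 28944 probe sets. The share called was 1.47% of probe sets and 1.64% of genes, 1.18% higher and 0.456% lower. Since the names were chosen with this comparison in view, nothing is read from the 3 of 10 called. The same 3 genes had transgenic values that did not overlap the wild-type values, a separation seen in 19.1% of all genes, 10.5% with transgenic values above and 8.61% with them below.

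**Figure D1:**
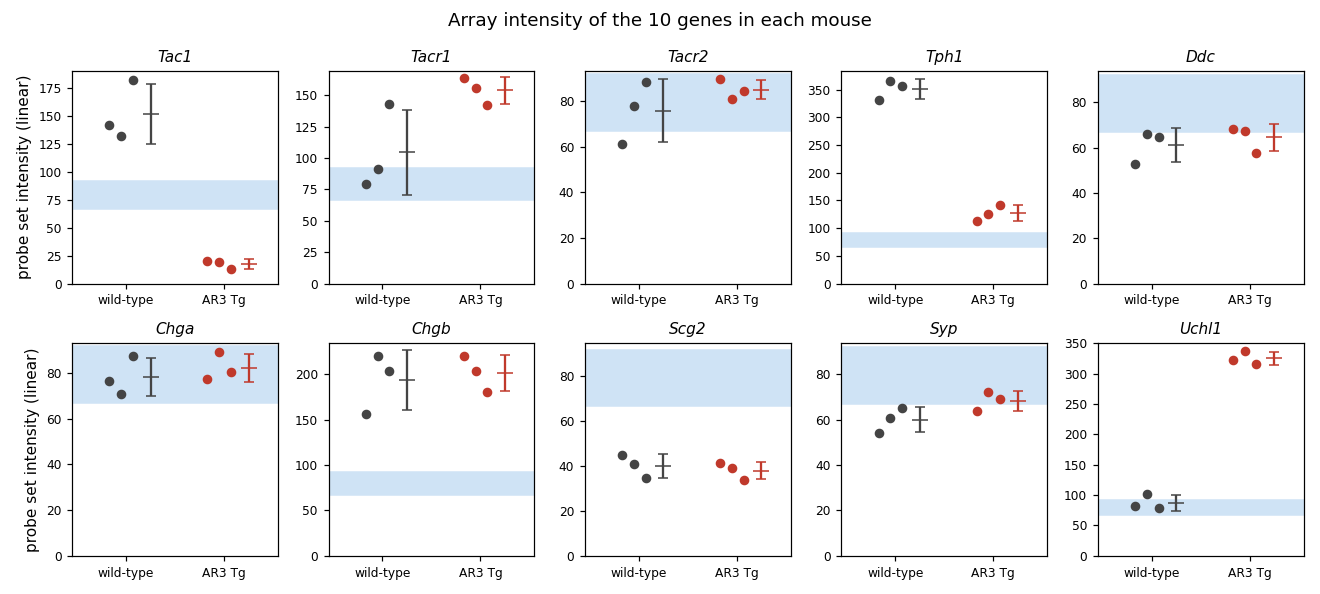
Probe set intensity on a linear axis for the 10 genes, with 1 point per mouse (dark grey wild-type, red AR3 transgenic) and mean ± SD beside the points; the blue band is the range over arrays of the 95th percentile of olfactory receptor probe sets, 66.9 to 91.9. Tac1 falls from above the band to below it, Tph1 stays above it in both genotypes, and Uchl1 goes from near the band to above 316 in every transgenic mouse.

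Tac1 was at 142, 132 and 182 in wild-type replicates 1, 2 and 3 and at 20.6, 19.4 and 12.8 in transgenic replicates 1, 2 and 3. Every transgenic value lay below the wild-type values, and also below the median of the olfactory receptor probe sets, which was 25.9 to 30.9 over the arrays. The means were 151.8 ± 26.5 and 17.6 ± 4.24 (SD, n = 3 each), a log2 change of -2.32 ± 0.14 (SE). Because the transgenic signal was at background, the ratio of the measured means, 8.63, is uncertain, and against the olfactory 95th percentile of the transgenic arrays Tac1 was at least 1.85-fold lower. Adding 1 or 64 to the intensities in place of 16 gave -3.05 or -1.40, and 3 genes had a larger fall than Tac1 with the constant of 16.

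Tacr1, the receptor that binds substance P best, was at 79.3, 91.0 and 143 in the wild-type mice and at 164, 155 and 143 in the transgenic mice. Wild-type replicate 3 reached the lowest transgenic value, so the groups overlapped, and the other 2 wild-type mice lay well below. The log2 change was 0.53 ± 0.18, with a 95% interval of 0.11 to 0.95 that is not adjusted for the number of genes. It was not called, except without wild-type replicate 3 (0.75) or with array weights (0.60). Tacr2, the receptor that prefers neurokinin A, was at 61.1, 77.9 and 88.4 and at 89.6, 81.2 and 84.5. These values lay within the range of the background scale in 5 of 6 mice. On 4 of the 6 arrays Tacr2 was above the olfactory 95th percentile of the same array. Its log2 change of 0.15 had a 95% interval of -0.12 to 0.42.

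Tph1 was at 332, 366 and 356 in wild-type and at 114, 126 and 142 in transgenic mice. The groups were far apart, the spread within each was small, and all 6 values lay above the olfactory 95th percentile of their array. The means were 351.4 ± 17.6 and 127.3 ± 14.4 (SD, n = 3 each), a 2.76-fold lower level and a log2 change of -1.36 ± 0.10. Over all genes 15 had a larger fall. Ddc, the next enzyme of the route, was at 52.7, 66.0 and 64.6 and at 68.2, 67.4 and 57.7, under the background scale of the same array in all 6 mice. Its log2 change of 0.06 had a 95% interval of -0.17 to 0.30, which at such a dim signal does not show that Ddc was equal.

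The granins, acidic proteins that pack dense-core vesicles, overlapped between genotypes. Chgb was the granin measured above background on every array, at 157, 221 and 203 in wild-type and 221, 204 and 181 in transgenic mice. The lowest of the 6 values was that of wild-type replicate 1, and the sign of the difference turned without it: the log2 change was 0.06 (95% interval -0.24 to 0.37), -0.07 without that mouse and -0.08 with array weights. Chga was at 76.5, 71.0 and 87.4 and at 77.2, 89.1 and 80.4, around the background scale, with a log2 change of 0.06 (-0.16 to 0.28). Scg2 was at 44.9, 41.0 and 34.5 and at 41.2, 39.0 and 33.6, below that scale in every mouse, with a log2 change of -0.06 (-0.29 to 0.17). At such dim signals the intervals of Chga and Scg2 do not show that these genes were equal.

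Syp, the synaptic vesicle membrane protein synaptophysin, was at 54.2, 60.9 and 65.1 in wild-type and 63.6, 72.2 and 69.2 in transgenic mice, again under the background scale of each array. Its log2 change of 0.15 had a 95% interval of -0.05 to 0.35. Uchl1, a ubiquitin hydrolase known as PGP9.5 and used as a marker of nerve and neuroendocrine cells, was at 81.3, 102 and 78.2 in wild-type and at 323, 337 and 317 in transgenic mice. The 3 transgenic values lay within a narrow range, far above all wild-type values. The means were 87.1 ± 12.8 and 325.5 ± 10.5 (SD, n = 3 each), a 3.74-fold higher level and a log2 change of 1.73 ± 0.10, and 47 genes had a larger rise. Wild-type replicates 1 and 2 were above the olfactory 95th percentile of their array and replicate 3 was below it.

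**Figure D2:**
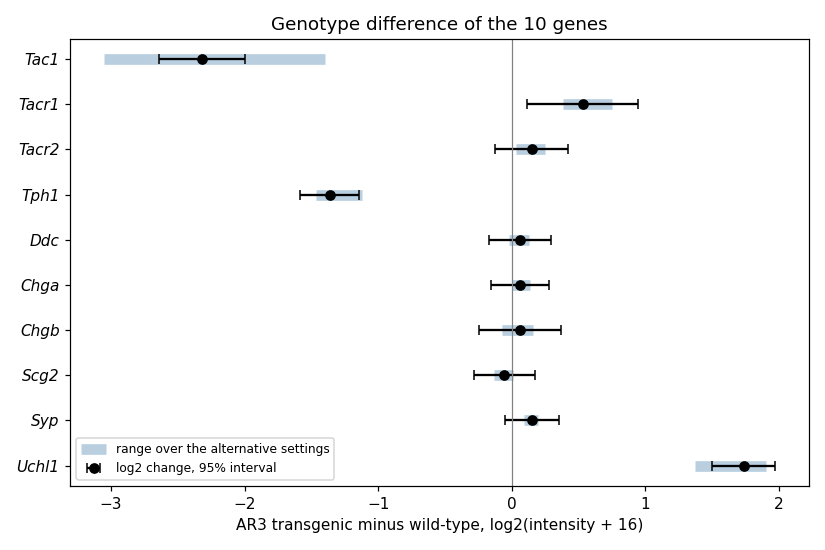
Log2 change of each of the 10 genes (x axis, AR3 transgenic minus wild-type on the log2(intensity + 16) scale); points are the estimates, black bars the 95% intervals without adjustment for the number of genes, and blue bars the range over the alternative settings. Tac1 (-2.32) and Tph1 (-1.36) lie on the left, Uchl1 (1.73) on the right, and the interval of Tacr1 (0.11 to 0.95) is the other that leaves out 0.

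Across the 15 alternative settings Tac1, Tph1 and Uchl1 were called in all 15, including the fits without wild-type replicate 1, where their log2 changes were -2.35, -1.40 and 1.70. The median log2 change of the 10 genes was 0.06, against 0.01 over all genes. The 2 genes lower in the transgenic mice were accompanied by 1 more with a negative difference, Scg2, and 7 of the 10 had a positive difference.

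The wider pathway was followed through 164 measured genes on 6 lists, apart from the 10 members: the tachykinin system, serotonin and monoamine handling, serotonin receptors, other neuropeptides and peptide hormones, neuropeptide receptors, and granins with dense-core vesicle machinery. In all, 5 rose in transgenic prostates, 0 fell and 159 did not pass, so that 3.05% were called, against 1.64% of all genes. These lists, too, were written with earlier results of these data known, so nothing is read from their shares. The 5 were the bombesin-family peptide Nmb, the vasodilator peptide Adm, the CGRP receptor subunit Ramp1, the peptide-trimming carboxypeptidase Cpe and the peptidase Dpp4. The groups did not overlap in 29 of the 164 (17.7%), against 19.1% of all genes, and the median log2 change was 0.04. Calls among these genes depended on single arrays: leaving out 1 mouse gave 2 to 8, with 3, 3, 3 and 2 without wild-type replicate 2 or transgenic replicates 1, 2 and 3, and 8 without wild-type replicate 1. After median centring 5 were higher and 2 lower, the lower being Rab27a and Tacr3.

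**Figure D3:**
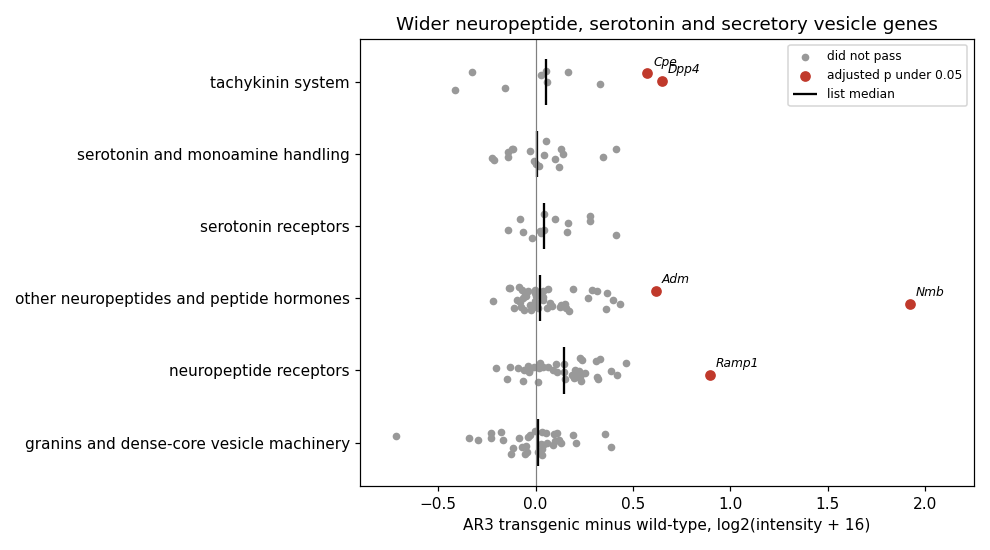
Log2 change (x axis, AR3 transgenic minus wild-type) of each measured gene of the 6 wider lists, with called genes in red and named, genes that did not pass in grey, and the list median as a black line. The 5 called genes all lie to the right, Nmb farthest at 1.92, and the list medians lie between 0.01 and 0.15.

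Within the tachykinin system, 2 of 10 genes rose and 8 did not pass, with a median log2 change of 0.05. An unadjusted p under 0.05 (limma) was found for 5 of the 10. All transgenic values lay above the wild-type values in 4 and below them in 2, against 10.5% and 8.61% of all genes. Cpe, which trims basic residues from peptide precursors, was at 371, 366 and 369 in wild-type and 571, 534 and 566 in transgenic mice. The log2 change was 0.57 ± 0.07, with an adjusted p of 0.0070 (limma), lost without transgenic replicate 3 (0.060) and with the replicate block (0.062). Dpp4, a cell-surface peptidase of the epithelium that can trim substance P, went from 1774 ± 196 to 2781 ± 139, that is 0.65 ± 0.10 on the log2 scale (limma, adjusted p 0.019). That call was lost without any mouse but wild-type replicate 1, at adjusted p up to 0.118 (limma), and with the replicate block (0.086). Of the other peptidases that cleave substance P, Mme was at 1882 ± 178 and 2366 ± 53.5 (adjusted p 0.18) and Ace at 2217 ± 170 and 2306 ± 162 (0.86, limma). The transgenic values of Mme all lay above its wild-type values. Mme was called higher with the intensity trend and with array weights. The related precursors Tac2 and Tac4 had log2 changes of 0.05 and 0.03. Tacr3, the neurokinin B receptor, had -0.41 (adjusted p 0.13, limma), from a level below the background scale on every array. Mrgprb2, also on this list and also below that scale on every array, had -0.33 (adjusted p 0.16, limma).

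Of 18 genes of serotonin and monoamine handling and 14 serotonin receptor genes, 0 were called by limma in either direction, and 1 and 1 had an unadjusted p under 0.05. The share of all genes at that unadjusted p is not given here. No count at it, for any of the lists, is therefore read as a surplus. The median log2 changes were 0.01 and 0.04. Maob, a mitochondrial oxidase of monoamines, was at 101, 101 and 79.3 in wild-type and 108, 130 and 155 in transgenic mice, a difference of 0.41 ± 0.14 on the log2 scale (limma, adjusted p 0.28). Hdc, which makes histamine, was at 249.1 ± 64.7 and 315.5 ± 34.1, with overlapping values. Slc18a1, the vesicular monoamine transporter of endocrine cells, was at 829.3 ± 133 and 884.0 ± 65.3, with overlapping values, and Maoa at 190.2 ± 14.7 and 174.2 ± 5.52. Tph2, the brain form of tryptophan hydroxylase, was below the background scale on every array, at 48.2 ± 3.29 and 47.1 ± 6.32. The serotonin receptors named by the same rule, Htr3b and Htr1f, had log2 changes of 0.28 each, both with an adjusted p over 0.4 (0.48 and 0.63, limma). Htr6, too dim for that rule, had the largest change of the list, 0.41 (limma, unadjusted p 0.029, adjusted p 0.34). It was above the background scale on 2 arrays. The median of the receptor list turned to -0.11 without wild-type replicate 1 and to -0.03 with array weights.

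Among 47 other neuropeptide and peptide hormone genes, 2 rose, 0 fell and 45 did not pass, with a median log2 change of 0.02. Nmb, the precursor of neuromedin B, was at 55.8, 40.4 and 58.2 in wild-type and at 241, 228 and 245 in transgenic mice. All wild-type values were under the background scale and all transgenic values above it, so the gene was at least 3.05-fold higher. The difference was 1.92 ± 0.11 on the log2 scale (limma, adjusted p 1.3e-04), and the call held in all 15 alternatives, with a range of 1.39 to 2.20. Adm, the precursor of adrenomedullin, went from 105.0 ± 9.59 to 169.4 ± 8.96, that is 0.62 ± 0.09 on the log2 scale (limma, adjusted p 0.014), a call lost on leaving out wild-type replicate 2 or any of the transgenic mice (up to 0.092) and with the replicate block (0.086). Penk, the enkephalin precursor, singled out after its values were seen, was at 351.9 ± 81.9 and 464.7 ± 71.3 and its groups overlapped. Further precursors singled out in the same way, Vip and Gal, were below the background scale in every mouse.

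Of 40 neuropeptide receptor genes, 1 rose, 0 fell and 39 did not pass, and 12 of 40 had all transgenic values above all wild-type values, against 10.5% of all genes. The list median of 0.15 went to 0.08 without wild-type replicate 1, and 18 of the 40 were under the background scale on every array. Ramp1, a subunit that makes the calcitonin receptor-like receptor respond to CGRP, was at 112, 128 and 119 in wild-type and 240, 240 and 228 in transgenic mice. Its log2 change of 0.90 ± 0.08 had an adjusted p of 0.0010 (limma) and was called in all 15 alternatives. Its partner Calcrl, singled out afterwards, had 0.33 (adjusted p 0.43, limma). Galr3, a galanin receptor, had 0.47 ± 0.17 (adjusted p 0.33, limma). The receptor of neuromedin B, Nmbr, also singled out afterwards, was at 97.0 ± 29.1 and 83.9 ± 33.6.

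Of 35 granin and dense-core vesicle genes, 0 were called by limma, while 6 had an unadjusted p under 0.05, and the median log2 change was 0.01. Rab27a, a small GTPase that docks secretory vesicles at the plasma membrane, was at 245, 319 and 313 in wild-type and 176, 196 and 143 in transgenic mice. Its groups did not overlap, and the difference was -0.72 ± 0.14 on the log2 scale (limma, adjusted p 0.063). It was called lower in 7 of 15 alternatives, among them median centring (0.0051) and the fit without wild-type replicate 1 (0.028). Cplx2, a regulator of vesicle fusion, had 0.35 (adjusted p 0.21, limma). Further granin-family members and partners singled out afterwards did not pass either, among them Scg5 (-0.34), Vgf (-0.05) and Pcsk1n (0.09).

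Pcsk1, the convertase that cuts prohormones in the same vesicles, was at 21.8, 22.2 and 21.0 in wild-type and 1047, 1084 and 1052 in transgenic mice. It was at background in every wild-type mouse and at least 13.6-fold higher in the transgenic mice, with a difference of 4.84 ± 0.07 on the log2 scale (limma, adjusted p 7.7e-08).

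**Figure D4:**
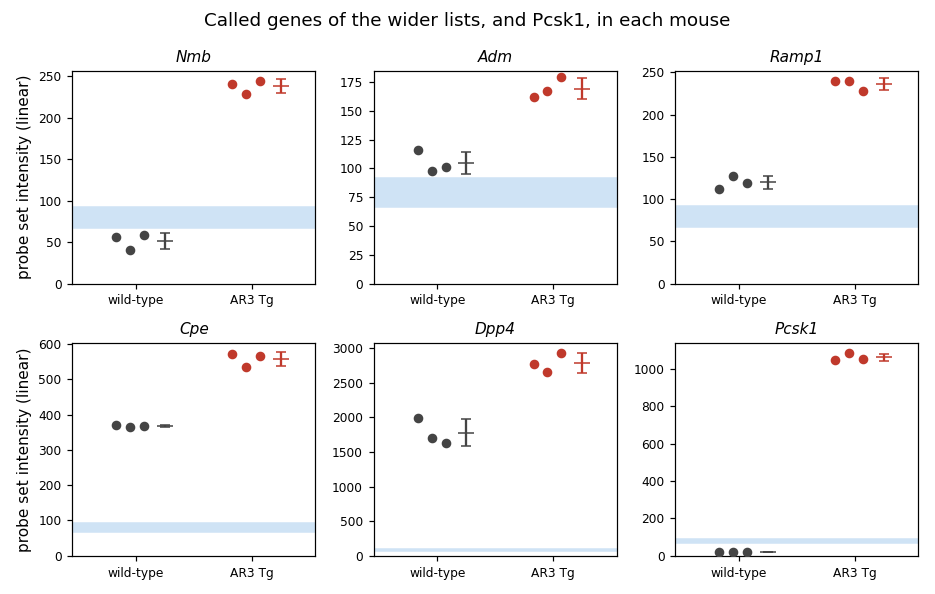
Intensity on linear axes of the 5 called genes of the wider lists and of Pcsk1, with 1 point per mouse and mean ± SD beside the points, dark grey for wild-type and red for AR3 transgenic; the blue band is the olfactory receptor scale of 66.9 to 91.9. Nmb and Pcsk1 go from below the band to above it, and Adm, Ramp1, Cpe and Dpp4 are above it in all 6 mice.

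Marker genes of the cells that could carry these transcripts were set beside the members. Of 24 genes of neuroendocrine cell identity 0 were called by limma (2 with an unadjusted p under 0.05), 12 were under the background scale on every array, and the summed level was 2237 to 2812 in wild-type and 2554 to 2704 in transgenic mice. The transcription factor Insm1 was at 118.3 ± 26.5 and 130.6 ± 9.13 and the adhesion molecule Ncam1 at 221.4 ± 14.5 and 203.6 ± 14.2, while Neurod1 and Eno2 were below the scale everywhere. Ezh2, the brightest of the list and no specific marker, was at 309.6 ± 14.1 and 311.5 ± 22.4. The sums overlapped between genotypes, and the part of neuroendocrine cells in the differences of Tac1, Tph1 and Uchl1 was not tested.

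Of 24 genes of autonomic and sensory neurons 0 were called by limma (4 with an unadjusted p under 0.05), and 14 were under the background scale on every array, among them the neurofilament genes Nefl, Nefm and Nefh, Prph, Tubb3 and Stmn2. Their summed level was 4111 to 4267 in wild-type and 4721 to 4847 in transgenic mice, without overlap. That sum was mostly Gata3, a factor also present in epithelium (2579 ± 301 and 3036 ± 117). Without Gata3 it was 1403 to 1847 and 1676 to 1767, with overlap. Of 15 Schwann cell and glia genes 0 were called by limma (3 with an unadjusted p under 0.05). Their sum was 3098 to 3300 in wild-type and 3595 to 3796 in transgenic mice, led by Erbb3 (757.6 ± 47.2 and 884.7 ± 69.9). Without Erbb3 it was 2334 to 2527 and 2725 to 2837, again without overlap. Of the 15 genes, 8 were above the background scale on every array and 4 on none, with log2 changes from -0.24 to 0.67. Among the dimmer ones, singled out afterwards, Sox10 was near background (69.5 ± 11.2 and 86.5 ± 11.6) and S100b and Cdh19 were under it. Uchl1 was higher in the mice in which the Schwann cell list was higher, and the part of glia in that difference was not tested.

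Mast cells, another store of serotonin, had their defining genes Cma1, Mcpt4, Tpsb2, Ms4a2 and Fcer1a under the background scale on every array. Of 14 mast cell genes 0 were called by limma (2 with an unadjusted p under 0.05), and 10 were under that scale on every array. The sum, led by Gata2 (1140 ± 120 and 1107 ± 35.6), was 1925 to 1943 in wild-type and 1949 to 1997 in transgenic mice. Without Gata2 it overlapped, at 669 to 919 and 833 to 929. Log2 changes on this list ran from -0.33 (Mrgprb2, under the background scale on every array) to 0.35 (Hdc). The part of mast cells in the difference of Tph1 was not tested. Of 8 urothelial genes 0 were called by limma (1 with an unadjusted p under 0.05), and their sum was 3197 to 3944 in wild-type and 2533 to 3066 in transgenic mice, led by Upk1a (2287 ± 390 and 1416 ± 156, adjusted p 0.083). It was lower in the same mice as Tac1 and Tph1, and the part of urothelium in those differences was not tested. Without Upk1a the urothelial sum overlapped, at 1250 to 1355 and 1235 to 1473.

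Of 12 prostate epithelium genes, 3 fell in transgenic prostates, namely Azgp1 (-1.17 ± 0.10, adjusted p 8.6e-04), Sbp (-0.91 ± 0.09, 0.0017) and Spink1 (-0.53 ± 0.08, 0.020, all limma), and 9 did not pass. The call on Spink1 was lost on leaving out wild-type replicate 2 or any of the transgenic mice (limma, adjusted p up to 0.122) and with the replicate block (0.114). The summed level was 58292 to 61613 in wild-type and 47496 to 50560 in transgenic mice, lower in the same mice as Tac1 and Tph1, and its part in those differences was not tested. The brightest gene, Tgm4, was at 14092 ± 700 and 14757 ± 98.5. Of 11 seminal vesicle genes 2 rose (Ceacam10, 4.03, and Spinkl, 4.08) and 1 fell (Svs3a, -1.43), with adjusted p of 7.4e-07, 2.8e-04 and 0.019 (limma), the last lost on leaving out wild-type replicate 2 or transgenic replicate 1 or 3 (up to 0.107). Ceacam10 and Spinkl were under the background scale in the wild-type mice and at least 11.9-fold and 8.32-fold higher in the transgenic mice. Pate4, its brightest member, had 3.88 ± 1.09 (adjusted p 0.20, limma), and 6.1e-04 without wild-type replicate 1. Skeletal muscle (12 genes, led by Acta1) and smooth muscle (10 genes, led by Acta2) had 0 genes called by limma, with 3 and 0 at an unadjusted p under 0.05, and sums that overlapped between genotypes.

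**Figure D5:**
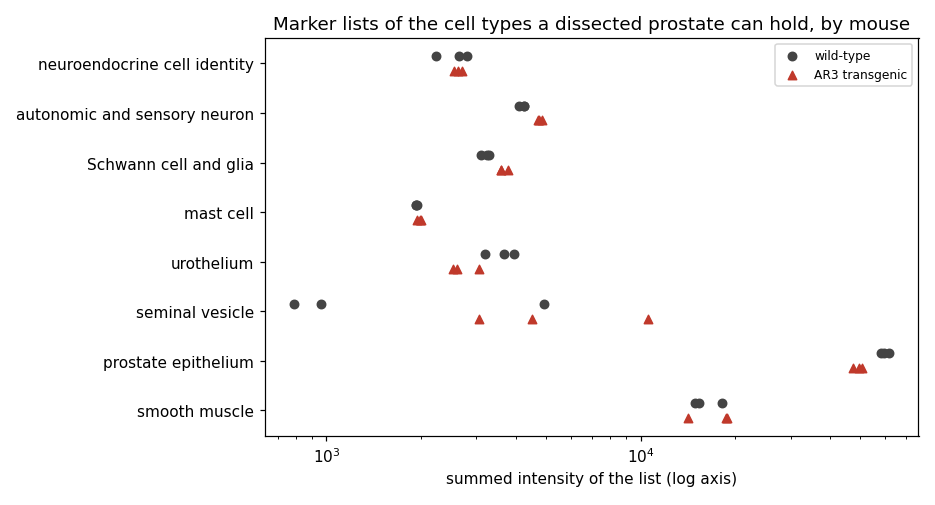
Summed intensity (log axis) of 8 marker lists in each mouse, with dark grey circles for wild-type and red triangles for AR3 transgenic mice. The neuroendocrine and smooth muscle lists overlap between genotypes, and the seminal vesicle list ranges from 790 to 10583. The urothelial and prostate epithelium lists are lower in every transgenic mouse, and the neuron, Schwann cell and mast cell lists are higher. Without their brightest gene (not plotted) the neuron, mast cell and urothelial lists overlap, while the Schwann cell and prostate epithelium lists do not.

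The genes whose pattern over the 6 arrays was most like that of a member were taken by Pearson correlation of log2(intensity + 16), among 12591 genes with a mean above the olfactory 95th percentile. The arrays form 2 clusters by genotype, so a high value mainly reflects a difference between genotypes, and no p is given. For Tac1 the 5 nearest were 1700019D03Rik, Pdlim2, Smim14, Uso1 and Ndufaf2 (r from 0.9945 to 0.9996), of which 1700019D03Rik (-0.40) and Pdlim2 (-0.43) were called lower and the other 3 did not pass. For Tph1 they were Ugcg, Pigr, Ddx55, Acox3 and Elapor1 (0.9929 to 0.9952), of which the mucosal immunoglobulin transporter Pigr (-1.79) and the peroxisomal oxidase Acox3 (-0.40) were called lower. For Uchl1, a search added after its values were seen, they were Mug1, Crim1, Ramp1, Cox6c and G6pc2 (0.9957 to 0.9979), of which all but Cox6c were called higher.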

How the data were processed

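The values analysed are intensities on a linear scale, as the authors deposited them; per the labels' protocols, total RNA was labelled with biotin for Affymetrix whole-transcript arrays, while for summarisation, background correction and normalization no method was found in the labels. The upper quartiles of the arrays nearly coincided, at 283 to 298, so the arrays were taken as already normalized. The array medians (94.5 to 110.8) and olfactory 95th percentiles (66.9 to 91.9) differed more. Both were lowest on wild-type replicate 1 and highest on wild-type replicate 3. Of 35512 probe sets, 6568 control probe sets were left out by identifier, from knowledge of the platform. Of the 28944 kept, 21789 had 1 gene symbol, 1621 several and 5534 none here, per GEO's platform annotation; 21698 of the 21789 matched the RefSeq table (GRCm38.p6). For 999 genes with several probe sets, that with the highest mean was used.

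Log2(intensity + 16) was tested in limma 3.58.1 (lmFit, eBayes; R 4.3.3), 3 against 3 arrays without covariates, two-sided, Benjamini-Hochberg adjusted over all 28944 probe sets, with a threshold of 0.05. An exact permutation test of 3 against 3 cannot go below 0.1, so none was used. The method was tested on simulated data. No scan date was used. Members, lists and motifs were chosen with earlier results of these data known. Genes were named by rule: all members, called genes of the wider lists (up to 4 per marker list), the 2 largest changes above background per wider list, the brightest of each marker list, the 5 nearest patterns, and Pcsk1. Other genes of the lists named in the text, such as Mme, Maoa, Insm1 or Nefl, were picked after their values were seen. Listed genes without a usable probe set were not analysed here. The closing section gives the alternatives tried.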

Additional observations from a re-analysis of the deposited data

How the results depend on the processing

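The alternatives changed the added constant (1 or 64), the scaling (quantile or median centring), the filter (without the dimmest 40%), the variance model (intensity trend, robust), the weights (per array), the pairing (mouse number as a replicate block), the probe set per gene (the mean of all), and the mice (each left out in turn). The count of the 10 members past the threshold was 3 in 13 of 15 alternatives and 4 with array weights and without wild-type replicate 3, where Tacr1 joined; leaving out 1 mouse gave 3 to 4. Scg2, Ddc and Syp were not tested without the dimmest probe sets. The wider pathway count of 5 moved to 8 without the dimmest probe sets, 8 with the intensity trend, 14 with array weights and 2 with the replicate block (Nmb and Ramp1), and leaving out 1 mouse gave 2 to 8. The count over all probe sets, 425 (305 higher, 120 lower), moved to 678 with the intensity trend, 1202 with array weights (686 higher, 516 lower) and 250 with the replicate block, and to 234 to 519 with 1 mouse left out. Median centring gave 314 higher and 264 lower. The causes were not tested. Mice of the same number did not deviate together (correlations of -0.04, 0.05 and -0.16), so the numbers were not taken as pairs. None of the called genes among the members, the wider lists, the marker lists and Pcsk1 changed direction under the alternatives run; those of the pattern search were not rerun, and dim signal limits what can be said of Ddc, Scg2, Syp and Chga.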
